A study of Drosophila melanogaster with 24 samples.

Results

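The genes of the vacuolar proton ATPase (V-ATPase) of Drosophila melanogaster were taken as every gene of the count table whose FlyBase symbol starts with Vha, and 33 of 17611 genes met this rule. Of these, 13 genes encode subunits of the V1 sector, 18 genes encode subunits of the V0 sector, and 2 genes encode accessory proteins. The symbols alone decided membership, but the members and the classes below were chosen with earlier results of these data known. From general knowledge of fly tissues, 14 genes were grouped as ubiquitous, with 1 broadly expressed gene for each subunit, 8 genes as testis-enriched paralogs, and 11 genes as others.

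The RNA came from whole adult w1118 flies, with males and females in equal numbers in each bottle, and poly(A) RNA was sequenced in 3 libraries for each of 6 groups. CTRL flies had been fed medium with DMSO, and PD flies medium with rotenone in DMSO, for 7 days, and both were taken 14 days after eclosion. The other 4 groups were taken 7 days later, at 21 days after eclosion. CWFP and CWOFP flies came from DMSO-fed flies, and PWFC and PWOFC flies from rotenone-fed flies. In the second 7 days, CWFP flies received fecal microbiota transplantation (FMT) from PD flies, PWFC flies received FMT from control flies, and CWOFP and PWOFC flies were kept on plain yeast-glucose medium. The treatment protocol in the sample labels names 250 µM rotenone for every group, the DMSO-fed flies included, so the groups are taken from the sample names. The material for FMT was made by grinding whole donor flies whose surface had been disinfected. The methods call the libraries biological replicates and do not say whether each came from its own bottle, so the p-values measure the spread between these libraries, which may be technical.

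The V-ATPase is a rotary pump that uses ATP to move protons into lysosomes, endosomes, the Golgi, and synaptic vesicles, and out of some epithelial cells. Its V1 sector hydrolyzes ATP on the cytosolic side, and its V0 sector carries protons through the membrane. In flies it acidifies the copper cell region of the midgut, loads synaptic vesicles, and energizes fluid secretion in the Malpighian tubule. Several subunits have more than 1 gene, and some of the paralogs are known mainly from the testis. No sequence of these genes was at hand, so positions are given instead.

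The libraries held 17920498 to 29165130 counted reads (median 21859942). Levels of 1 gene in different libraries are given as CPM, the counts brought to a common library size after TMM scaling over all 18 libraries. Levels of different genes are compared as TPM, for which counts are first divided by the exon length of the gene and then scaled to a common total per library. Groups were compared with the quasi-likelihood test of edgeR, and a gene was called when its p after Benjamini-Hochberg adjustment over all tested genes was under 0.05. The term differentially expressed transcript (DET) is kept for a called gene whose log2 fold change was also above 1 in size.

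Marker lists for other tissues were counted beside the Vha genes, since the RNA came from whole flies. At least 10 counts in some library were reached by all 20 markers of the testis, all 13 of the eggshell and yolk, all 11 of neurons, all 13 of the Malpighian tubule, and 12 of 13 of the midgut. The Malpighian tubule, where the pump is abundant, varied least, with a summed level of 435 to 765 CPM. CWFP replicate 1 stood apart in the testis markers. The CPM of 20 testis genes summed to 54.2 in that library, against 157 to 1880.1 in the other 17 libraries. The spreads over libraries and the comparisons that use this library are therefore given with and without it where they move. In whole flies, fewer cells of a type and less RNA per cell cannot be told apart.

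In the V1 sector, subunits A and B were among the most abundant. Vha68-2 is the ubiquitous gene of subunit A (chr2L:12974322-12978607, + strand, coordinates of the dm6 genome), and had a median of 527 TPM over the 18 libraries, with a range of 437 to 602. Its paralog Vha68-3 begins 178 bases further on the same strand and reached a median of only 18.7 TPM. Vha68-1, the third gene of subunit A, had 26.2 TPM. Vha68-2 made up a median of 92.1% of the TPM of subunit A, between 87.7% and 97.8% in single libraries. Vha55, the only gene of subunit B (chr3R:12623762-12627829, - strand), had a median of 531 TPM. Subunits G, E, C, and H had only 1 gene each. Vha13 of subunit G, a part of the peripheral stalk, had 725 TPM, and Vha26 of subunit E, its partner in the stalk, had 454 TPM. Vha44 of subunit C, which joins V1 to V0 and is released when the sectors come apart, had 139 TPM, and VhaSFD of subunit H, which restrains free V1, had 159 TPM.

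The central rotor had paralogs for testis. Vha36-1 of subunit D had 294 TPM, whereas Vha36-2 and Vha36-3 had 13.4 and 16.9 TPM. Vha14-1 of subunit F had 269 TPM, and Vha14-2 had 5.21 TPM. The leading gene made up a median of 90.3% of the TPM of subunit D and 98.1% of subunit F.

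In the V0 sector, the proteolipid gene Vha16-1 (subunit c, the proton-carrying ring) had the highest level of all 33 genes, with a median of 1008 TPM and a range of 807 to 1346. It made up 99.2% of the TPM of subunit c. Its paralogs Vha16-3, Vha16-4, and Vha16-5 had medians of 4.42, 0.999, and 3.56 TPM. Vha16-2 had 0 counts in all 18 libraries, which allows a level of up to 0.103 to 0.167 CPM of the unscaled library total (3 counts, for counting error only), and 84.5% of its exons lie opposite an antisense RNA. VhaPPA1-1, of the second proteolipid c″, had 337 TPM against 5.18 TPM for VhaPPA1-2, and VhaAC39-1 of subunit d, which couples the ring to the rotor, had 330.3 TPM against 1.44 TPM for VhaAC39-2. The small subunit e was shared among more genes, with 206 TPM for VhaM9.7-b, 57.8 TPM for VhaM9.7-c, 10.3 TPM for VhaM9.7-d, and 4.78 TPM for VhaM9.7-a. Of the accessory genes, VhaAC45, which guides assembly of the pump, had 381 TPM, and its related gene VhaAC45RP had 5.04 TPM.

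Subunit a, which anchors the pump to a membrane and sets which membrane it works in, was the most divided among its genes. Vha100-2 had a median of 208 TPM and made up 59.0% of the subunit, between 54.9% and 64.8% in single libraries. Vha100-1, the gene known from neurons and synaptic vesicles, had 75.5 TPM, Vha100-5 had 37.3 TPM, Vha100-4, known from the midgut, had 14.8 TPM, and Vha100-3, of the testis-enriched class, had 6.93 TPM. The share of Vha100-5 in subunit a was 7.13 to 9.30% in CWOFP and 8.38 to 9.23% in PWOFC, the groups of day 14 without FMT, and 10.7 to 14.1% in the libraries of the other 4 groups.

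**Figure D1:**
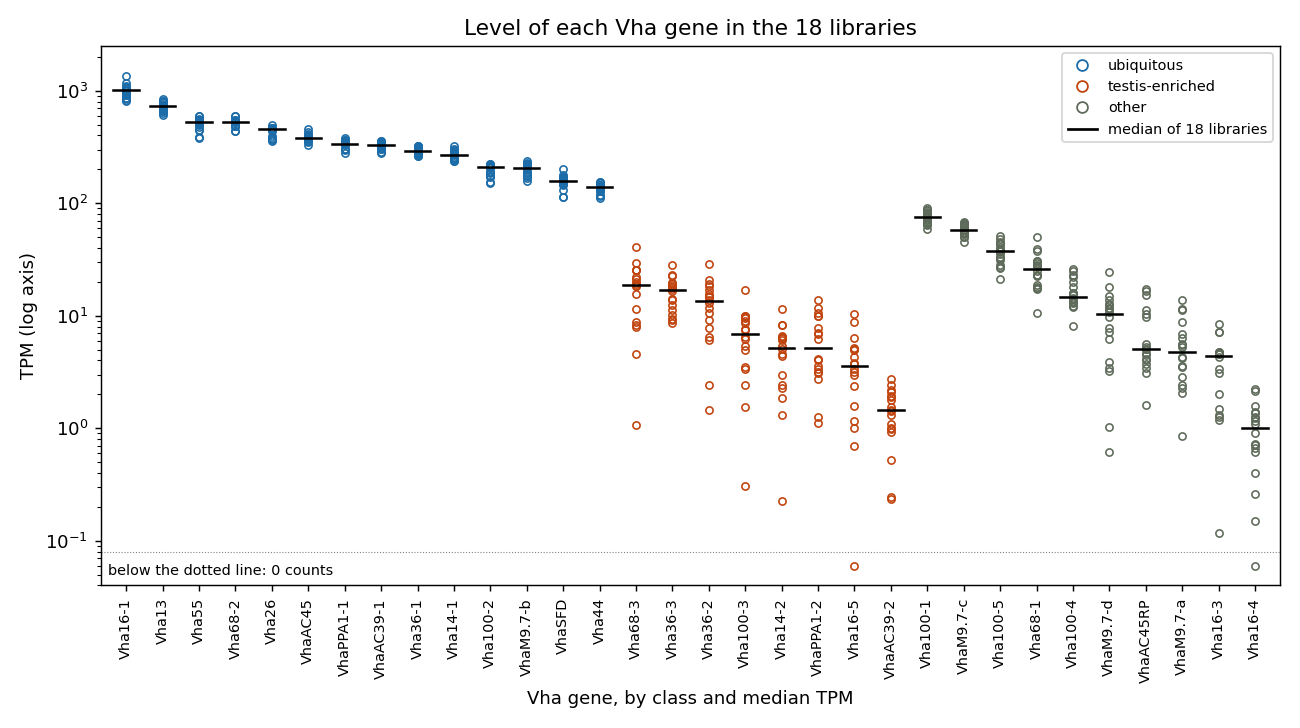
TPM of the 32 Vha genes with counts in any library, on a log axis, with 1 circle for each of 18 libraries and a bar at the median; colors mark the 3 classes, circles below the dotted line stand for 0 counts, and Vha16-2 is left out because all its counts are 0. The medians of the ubiquitous genes lie between 139 and 1008 TPM with little spread, and those of the testis-enriched genes between 1.44 and 18.7 TPM with a long tail down.

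The ubiquitous genes varied little. Their highest library exceeded their lowest by 1.32 times for Vha26 up to 1.65 times for VhaM9.7-b. The SD of their log2 CPM over the 18 libraries was 0.11 to 0.21, between percentiles 0.478 and 11.3 of the 12981 genes with enough counts, whose median was 0.46. The testis-enriched genes had an SD of 0.50 for Vha36-3 up to 1.36 for Vha16-5, between percentiles 54.6 and 95.3. Without CWFP replicate 1 their SD was 0.48 to 0.99, between percentiles 54.3 and 92.9. The percentiles are over genes of all levels, and counting noise raises the SD at low counts. The testis-enriched genes had 0 to 1267 counts per library, and the ubiquitous genes 1745 to 52486. The part of this in the contrast was not tested. Vha100-3 differed by 50.1 times between its highest and its lowest library, and by 9.50 times without CWFP replicate 1, and Vha16-5 had 0 counts in CWFP replicate 1 and 125 counts in PD replicate 1. The 11 others were mixed. Vha100-1 and VhaM9.7-c were as even as the ubiquitous genes, with a highest library 1.49 and 1.67 times the lowest, and Vha16-3 differed by 65.3 times. The lowest value of Vha16-3 was 1 count in CWFP replicate 1, and without that library it differed by 6.19 times.

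Vha16-1, the proteolipid, had 2019, 1688, and 1542 CPM in CTRL, 1799, 1744, and 1891 in PD, 1799.7, 1654, and 1882 in CWFP, 1837, 1618, and 1564 in CWOFP, 2511, 2132, and 2069 in PWFC, and 1904, 1834, and 1912 in PWOFC. In these scaled CPM the PWFC libraries were the highest, and the other groups overlapped. Vha68-2, the catalytic subunit A, had 824, 820.0, and 795 CPM in CTRL, 865, 835, and 852 in PD, 896, 839, and 819 in CWFP, 802, 749.8, and 733 in CWOFP, 906, 1065, and 1061 in PWFC, and 923, 883, and 878 in PWOFC. CWOFP had the lowest median and PWFC the highest. Vha55, subunit B, had 926, 737, and 822 CPM in CTRL, 799.7, 728, and 879 in PD, 931, 777, and 830.2 in CWFP, 826, 758, and 726 in CWOFP, 923, 1062, and 969.7 in PWFC, and 937, 881, and 869 in PWOFC, so that CTRL and PD overlapped.

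Of the subunit a genes, Vha100-2 had 376, 334, and 391 CPM in CTRL, 386, 344, and 397 in PD, 378, 342, and 376 in CWFP, 367, 357, and 312 in CWOFP, 343, 463, and 432 in PWFC, and 435, 428, and 396 in PWOFC. Vha100-1, the neuronal paralog, had 158, 144, and 159 CPM in CTRL, 149.8, 146, and 160.4 in PD, 149, 122, and 123 in CWFP, 139, 133, and 118 in CWOFP, 135, 167, and 163 in PWFC, and 165, 176, and 154 in PWOFC. Both genes were lowest in CWOFP replicate 3 and overlapped between CTRL and PD.

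The testis-enriched genes moved largely together across the libraries, with r of 0.48 to 0.99 over their 28 pairs. Vha36-3 followed less closely. It had 6.91 CPM in CWFP replicate 1, against 13.8 and 13.6 in the others of that group. In CWOFP replicate 1, where Vha14-2 was low, Vha36-3 was not. Vha14-2 of subunit F had 5.001, 5.005, and 4.90 CPM in CTRL, 8.82, 7.32, and 7.75 in PD, 0.232, 6.59, and 10.9 in CWFP, 2.96, 5.77, and 5.96 in CWOFP, 6.13, 1.41, and 2.00 in PWFC, and 2.49, 4.56, and 2.24 in PWOFC. CWFP replicate 1 was the lowest and CWFP replicate 3 the highest. Vha36-3 of subunit D had 9.89, 14.6, and 9.30 CPM in CTRL, 23.6, 20.02, and 16.7 in PD, 6.91, 13.8, and 13.6 in CWFP, 13.9, 12.05, and 14.02 in CWOFP, 15.4, 7.72, and 7.79 in PWFC, and 8.12, 8.62, and 10.6 in PWOFC, and all 3 PD libraries were above the other 15. VhaAC39-2 of subunit d had between 4 and 45 counts per library. It had 0.692, 1.57, and 1.503 CPM in CTRL, 1.12, 1.51, and 1.33 in PD, 0.185, 1.84, and 1.92 in CWFP, 0.174, 0.983, and 1.48 in CWOFP, 1.09, 0.870, and 0.779 in PWFC, and 0.398, 0.964, and 0.671 in PWOFC, with its lowest values in CWOFP replicate 1 and CWFP replicate 1.

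The 8 testis-enriched genes together summed to 66.4, 81.9, and 77.8 CPM in CTRL, 126, 93.5, and 97.1 in PD, 11.1, 92.0, and 141 in CWFP, 44.6, 82.0, and 85.8 in CWOFP, 67.9, 23.0, and 35.4 in PWFC, and 36.1, 64.8, and 46.4 in PWOFC. The 4 lowest libraries were also the 4 lowest for the testis markers, with 54.2 CPM in CWFP replicate 1, 157 in PWFC replicate 2, 339 in PWOFC replicate 1, and 349 in PWFC replicate 3. The median Pearson r of log2 CPM with 19 testis markers was between 0.73 for VhaAC39-2 and 0.96 for Vha14-2. VhaM9.7-d (0.96), Vha16-3 (0.93), and Vha16-4 (0.87), which had been placed among the others, were as high, and Vha68-1 (0.73), VhaM9.7-a (0.69), and VhaAC45RP (0.59) of the same class came next, whereas the 14 ubiquitous genes ranged from -0.64 for VhaAC39-1 to 0.22 for VhaM9.7-b. Without CWFP replicate 1 the testis-enriched genes had 0.58 to 0.94, VhaM9.7-d 0.95, Vha16-3 0.87, Vha16-4 0.80, Vha68-1 0.57, VhaM9.7-a 0.53, VhaAC45RP 0.43, and the ubiquitous genes -0.72 to 0.47. These correlations are a description, over libraries that share groups. Among themselves, the testis-enriched genes had a median r of 0.87 over 28 pairs, the ubiquitous genes 0.46 over 91 pairs, and the pairs between the classes -0.32 over 112 pairs, or 0.87, 0.46, and -0.39 without CWFP replicate 1. The genes outside the family most like the ubiquitous genes, by mean r, were Cmpk (0.51), Pgm1 (0.50), CG4734 (0.50), lncRNA:CR45570 (0.50), and ATPsyndelta (0.49).

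**Figure D2:**
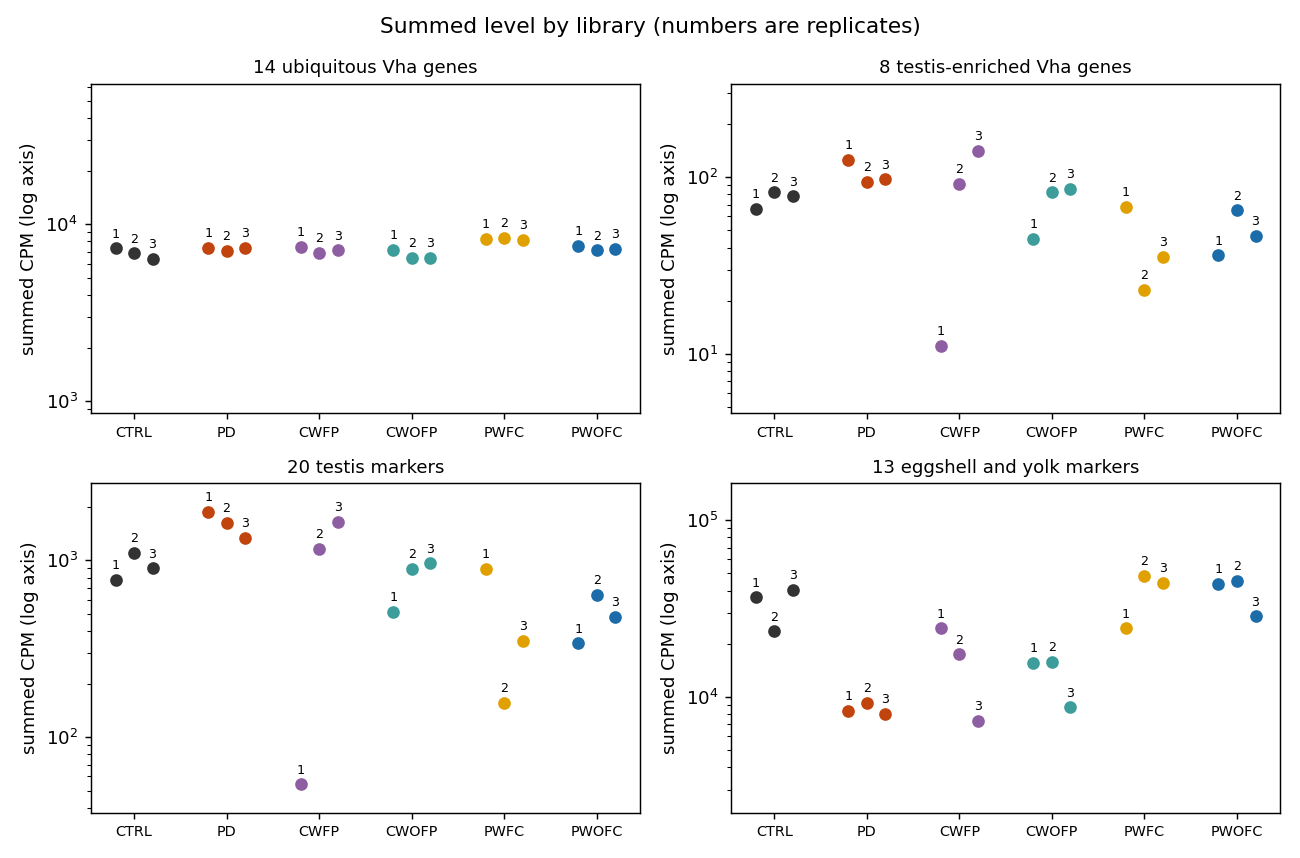
Summed CPM by library for the 14 ubiquitous Vha genes, the 8 testis-enriched Vha genes, 20 testis markers, and 13 eggshell and yolk markers. The log axes cover the same fold range at differing levels. Each point is 1 library and its number the replicate. The ubiquitous sum stays between 6411 and 8346 CPM, and the testis-enriched sum runs from 11.1 CPM in CWFP replicate 1 to 141 CPM in CWFP replicate 3.

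Across all 6 groups, 4 genes differed, and each belonged to the others: VhaAC45RP (adjusted p = 0.000419), Vha100-5 (adjusted p = 0.00347), Vha100-4 (adjusted p = 0.0272), and Vha68-1 (adjusted p = 0.0498, edgeR over the 18 libraries). This was 4 of 32 tested members, against 9.93% of all 12981 genes tested. None of the 14 ubiquitous genes was called, with 3 of them at an unadjusted p under 0.05, and none of the 8 testis-enriched genes, with 1 at an unadjusted p under 0.05, where 28.4% of all genes were. DESeq2 called 9 members and 23.4% of all genes, among them the ubiquitous Vha68-2, VhaPPA1-1, and VhaAC39-1 and the testis-enriched Vha36-3. Without CWFP replicate 1, 15 members were called, 7 of them testis-enriched, and the share of all genes called rose to 41.5%. Without CWOFP replicate 1, any 1 of the PD libraries, PWFC replicate 3, or PWOFC replicate 2, only VhaAC45RP and Vha100-5 were called, with 4.53 to 8.26% of all genes.

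VhaAC45RP, the relative of the assembly factor Ac45, had 9.08, 12.8, and 9.96 CPM in CTRL and 18.5, 17.6, and 15.6 in PD. On day 14 it had 1.67, 3.87, and 3.79 CPM in CWFP, 4.45, 2.95, and 4.61 in CWOFP, 5.39, 5.0002, and 5.94 in PWFC, and 4.23, 3.04, and 4.97 in PWOFC. The PD libraries did not overlap with CTRL, and no library of day 14 reached those of day 7. Vha100-5, a paralog of subunit a (chr2L:11738948-11744524, + strand), had 72.5, 78.0, and 69.1 CPM in CTRL, 69.5, 75.7, and 84.3 in PD, 59.8, 67.7, and 79.5 in CWFP, 36.6, 41.4, and 43.1 in CWOFP, 62.4, 81.1, and 83.5 in PWFC, and 58.1, 54.4, and 48.0 in PWOFC. CWOFP and PWOFC, the groups of day 14 without FMT, lay below all libraries of the other 4 groups. Part of Vha100-5, 18.1% of its exons, lies opposite the antisense RNA CR44144, and without strand in the counting the reads of both cannot be told apart.

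Vha100-4, the midgut paralog of subunit a, starts 517 bases after the end of Vha100-2, on the same strand of chromosome 3R. It had 24.1, 28.5, and 20.98 CPM in CTRL, 40.1, 33.8, and 38.3 in PD, 22.0, 24.1, and 40.1 in CWFP, 13.1, 18.7, and 18.2 in CWOFP, 26.2, 38.8, and 34.6 in PWFC, and 23.9, 22.7, and 19.0 in PWOFC. Vha68-1, a paralog of the catalytic subunit, had 55.9, 45.5, and 47.5 CPM in CTRL and 67.5, 56.8, and 75.0 in PD, and 17.4 to 44.6 CPM in the 12 libraries of day 14, all below those of day 7. VhaAC45RP and Vha68-1 also moved with the testis markers, at the r given above, and the part of this in their differences was not tested.

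**Figure D3:**
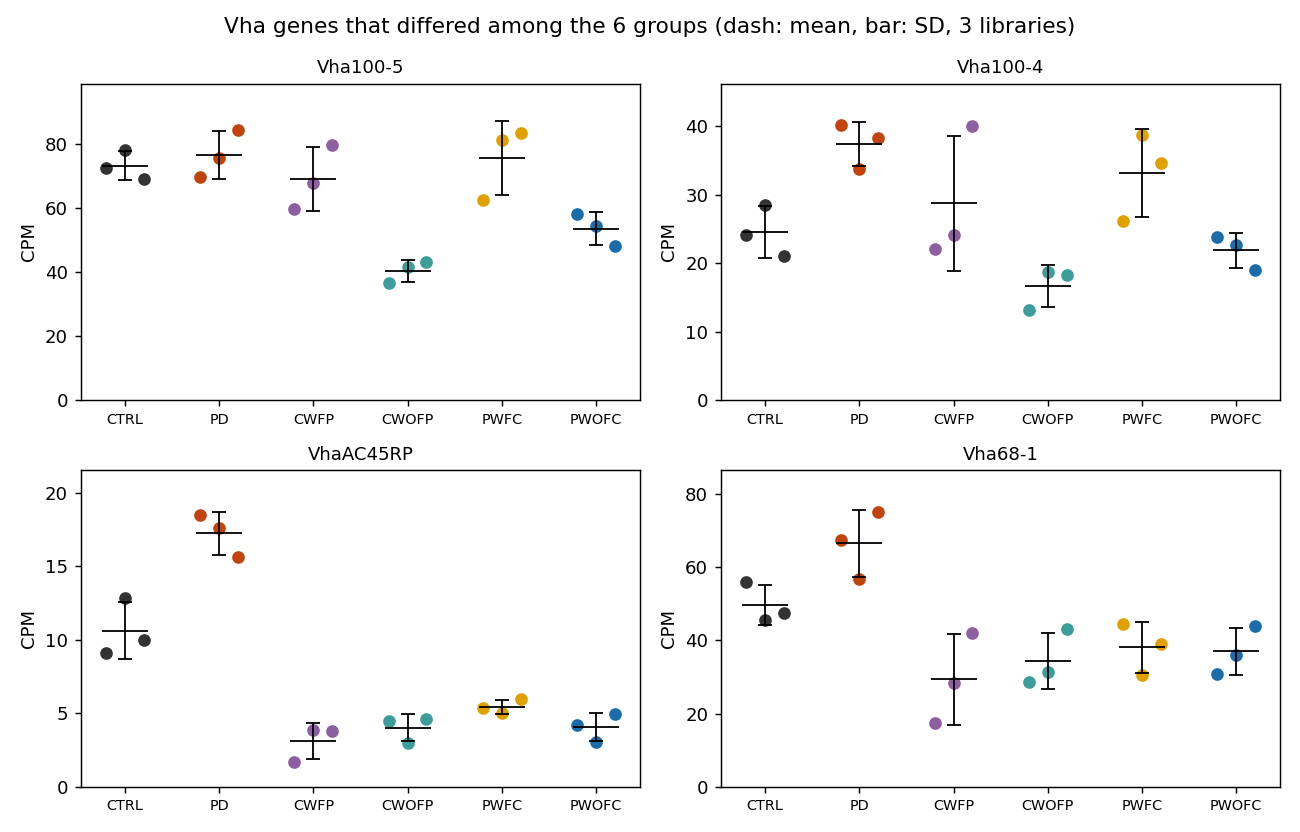
CPM by group of the 4 Vha genes that differed among the 6 groups by edgeR, with 1 point per library, a dash at the mean, and bars of 1 SD over 3 libraries. VhaAC45RP lies between 15.6 and 18.5 CPM in PD and at or below 5.94 CPM in every library of day 14, and Vha100-5 is lowest in CWOFP, between 36.6 and 43.1 CPM.

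To ask what rotenone did to these genes, PD was compared with CTRL. No member passed the test of edgeR, against 3.17% of all genes, and 8 of 32 had an unadjusted p under 0.05, against 37.6% of all genes. The log2 fold change was above 0 for 29 of the 32, with a median of 0.21, where the median of all genes was 0.05. The 8 testis-enriched genes were all above 0, with a median of 0.54, and the 14 ubiquitous genes had a median of 0.13 and lay between -0.05 and 0.38. Upper quartile scaling moved the median of all genes to 0.23, and that of the ubiquitous genes to 0.31, with all 32 members above 0. With the scaling of DESeq2 these medians were 0.0046 and 0.08, with 10 of the 14 ubiquitous genes above 0, so their direction is read against the median of all genes only.

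The largest changes were in Vha16-5 (log2 fold change 0.87 ± 0.41 SE, adjusted p = 0.15 by edgeR) and Vha36-3 (0.83 ± 0.22, adjusted p = 0.0536). Vha16-5, a testis-enriched proteolipid, had 1.19, 2.55, and 1.34 CPM in CTRL and 4.84, 2.51, and 2.04 CPM in PD, which overlapped. The smallest adjusted p was that of VhaAC45RP (0.70 ± 0.18, adjusted p = 0.0527). The groups did not overlap, with PD higher, for 13 of the members, among them 4 testis-enriched and 3 ubiquitous genes, against 20.7% of all genes. DESeq2 called 5 members (Vha36-3, VhaAC45RP, Vha100-4, Vha14-2, and VhaM9.7-a) and 25% of all genes. Without CTRL replicate 2, 8 members and 41.9% of all genes were called. The summed testis markers were also higher in PD, with 1339 to 1880.1 CPM against 775 to 1099.7 in CTRL. Of the 19 testis markers tested, 2 were called, both higher. The eggshell and yolk markers were lower, with 8042 to 9250.1 CPM in PD against 23500 to 40266 in CTRL, and 7 of 13 were called lower. Their part in the values of the Vha genes was not tested.

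PWOFC was compared with CWOFP to ask what of the rotenone effect was left 7 days after feeding ended. No member was called by edgeR, against 0.0407% of all genes, and 6 of 31 had an unadjusted p under 0.05, against 25.2% of all genes. The testis-enriched genes now lay below 0 in 8 of 8 (median -0.67 on the log2 scale), and the ubiquitous genes had a median of -0.05, as did all genes. The largest changes were in VhaM9.7-d (-1.24 ± 0.36, adjusted p = 0.136) and VhaPPA1-2 (-0.90 ± 0.45, adjusted p = 0.238, edgeR). VhaM9.7-d, a gene of subunit e, had 2.09, 2.78, and 3.74 CPM in CWOFP and 1.046, 1.83, and 1.12 CPM in PWOFC, with no overlap. VhaPPA1-2, a proteolipid c″ paralog, had 1.09, 2.18, and 3.66 CPM in CWOFP and 1.39, 1.42, and 1.21 CPM in PWOFC, with overlap. DESeq2 called Vha36-3 and VhaM9.7-d, both lower in PWOFC, and 10.7% of all genes. In CPM, the PWOFC libraries lay above the CWOFP libraries for 8 members, against 28.2% of all genes. Of these, 5 were ubiquitous and the other 3 were Vha100-1, Vha100-4, and Vha100-5 of subunit a. They lay below for 3 members, Vha36-3, VhaM9.7-b, and VhaM9.7-d, against 10.1%. CPM are scaled over all 18 libraries, and the fold changes over the libraries of these 2 groups only. Under the latter scaling, VhaPPA1-1 and VhaSFD, which lay above in CPM, had log2 fold changes of -0.04 and -0.00025. The direction of such small differences therefore depends on the scaling. The testis markers summed to 511 to 961 CPM in CWOFP and 339 to 639.9 CPM in PWOFC, which overlap. The eggshell and yolk markers, at 8741 to 15773 CPM in CWOFP and 28534 to 45387 CPM in PWOFC, and the midgut markers, at 2924.5 to 4119 and 5824 to 8448 CPM, were higher with no overlap, although none was called. The part of these markers in the values of the Vha genes was not tested.

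The difference between these 2 contrasts was itself tested, as the change of the rotenone effect from day 7 to day 14. It was lower on day 14 for Vha36-3 (-1.38 ± 0.30, adjusted p = 0.00939), VhaM9.7-d (-1.73 ± 0.45, adjusted p = 0.0155), Vha36-2 (-1.09 ± 0.34, adjusted p = 0.0289), and Vha14-2 (-1.35 ± 0.44, adjusted p = 0.0325, edgeR over 12 libraries). All 4 were also DETs by size, and 3 of them belong to the testis-enriched class. This was 4 of 32 members, all lower, against 13.8% of all genes called lower and 37.1% called in either direction, or 22.4% as DETs. Vha36-2, a rotor gene, had 10.003, 11.3, and 11.7 CPM in CTRL and 17.3, 13.02, and 13.8 in PD, with no overlap, and 7.02 to 12.3 in CWOFP and 4.83 to 8.06 in PWOFC, with overlap. VhaM9.7-d had 2.15, 3.25, and 3.56 CPM in CTRL and 5.65, 3.98, and 4.13 in PD, with no overlap. VhaPPA1-2, which had the second largest change (-1.45 ± 0.58, adjusted p = 0.0662), had 1.54, 3.53, and 2.67 CPM in CTRL and 4.99, 3.26, and 4.003 in PD, with overlap. No ubiquitous gene was called, with 1 of 14 at an unadjusted p under 0.05, where 51% of all genes were. DESeq2 called 6 members, among them the ubiquitous VhaM9.7-b, and 42.1% of all genes. Of the testis markers 13 of 19 were called, each lower on day 14, and of the eggshell and yolk markers 10 of 13, each higher. Their part in the change of the 4 genes was not tested. The 4 calls fell to 2, Vha36-3 and VhaM9.7-d, without CTRL replicate 1 or 3, CWOFP replicate 2 or 3, PD replicate 1, or PWOFC replicate 1, with 12.7 to 29.1% of all genes called, and rose to 7 without CTRL replicate 2, with 46%. With all 18 libraries in 1 fit, none was called and 2.67% of all genes were.

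The largest difference for these genes lay between the 2 ages of rotenone-fed flies. PWOFC and PD differ in age and in 7 days without rotenone and DMSO, which this comparison alone cannot tell apart. The difference between this step and the same step in flies never fed rotenone, CWOFP vs CTRL, is the change of the rotenone effect tested above, which held 4 calls. In PWOFC, 17 of 32 members were lower than in PD, of which 11 were DETs, and none was higher, against 64.1% of all genes called, 34% called lower, and 33% as DETs. All 8 testis-enriched genes fell, with log2 fold changes between -1.61 for VhaPPA1-2 and -0.78 for Vha100-3 and a median of -1.19. Of the 14 ubiquitous genes, only VhaM9.7-b fell (-0.48 ± 0.14, adjusted p = 0.012, edgeR), from 184, 186, and 156 CPM in PD to 133, 112, and 134 CPM in PWOFC. The median over the ubiquitous genes was -0.01, where that of all genes was -0.09. The other 8 calls were among the 10 tested members of the others.

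VhaAC45RP fell most (-2.08 ± 0.23, adjusted p = 0.000129), with no overlap of the groups. VhaM9.7-a, of subunit e, fell from 6.27, 5.49, and 4.59 CPM in PD to 0.996, 0.862, and 2.33 CPM in PWOFC (-1.96 ± 0.36, adjusted p = 0.000994), and VhaM9.7-d from 5.65, 3.98, and 4.13 CPM to 1.046, 1.83, and 1.12 CPM (-1.79 ± 0.31, adjusted p = 0.000665, edgeR). Vha100-4 and Vha100-5 of subunit a fell by 0.78 and 0.52 on the log2 scale, while Vha100-1 and Vha100-2, with values of 0.11 and 0.15, were not called. Testis markers fell too, 16 of the 19 tested, from 1339 to 1880.1 CPM in PD to 339 to 639.9 CPM in PWOFC, and the eggshell and yolk markers rose in 10 of 13. Of the midgut markers 9 of 12 fell, from 13200 to 16897 CPM to 5824 to 8448 CPM, and of the 11 neuron markers 9 fell and 2 rose, from 574 to 727 CPM to 416 to 449.7 CPM. Their part in the fall of the Vha genes was not tested. Upper quartile scaling moved the median of all genes to -0.39, put all 32 members below 0, and raised the calls to 23 (62.9% of all genes), so that the direction of the ubiquitous genes, at a median of -0.31 under it, is not settled apart from that shift. With all 18 libraries in 1 fit, 7 members and 37.1% of all genes were called.

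The same step in age without rotenone, which was also a step from DMSO medium to plain medium, was the comparison of CWOFP with CTRL. It held 1 call, Vha100-5, which was lower in CWOFP (-0.80 ± 0.13, adjusted p = 0.0263, edgeR), against 2.03% of all genes called and 1.99% called lower, and 4 of 31 members had an unadjusted p under 0.05, against 11.5% of all genes. The 3 CWOFP libraries lay below the 3 CTRL libraries. The log2 fold change stayed between -0.85 and -0.74 when each of the 6 libraries was left out in turn, and the adjusted p then rose to between 0.0543 and 0.107, so the call was lost each time, with 0.427 to 2.13% of all genes called. The groups did not overlap, with CWOFP lower, for 6 members, none of them ubiquitous or testis-enriched, against 13.6% of all genes. VhaAC45RP had the largest log2 fold change (-1.35 ± 0.28, adjusted p = 0.0562), followed by VhaM9.7-a (-0.84 ± 0.37, adjusted p = 0.446), which had 2.69, 4.27, and 2.17 CPM in CTRL and 1.48, 1.32, and 2.13 CPM in CWOFP. DESeq2 called VhaAC45RP as well, and 4.98% of all genes. The testis-enriched genes had a median of -0.10 and the ubiquitous genes of 0.04, with no call in either class, no unadjusted p under 0.05, and none by DESeq2. Midgut markers were lower in CWOFP, at 2924.5 to 4119 CPM against 12854 to 16399 CPM in CTRL, and 6 of 12 were called lower. So were 4 of 13 eggshell and yolk markers, at 8741 to 15773 CPM against 23500 to 40266 CPM, and 1 of 11 neuron markers. Their part in the fall of Vha100-5, and that of the change of medium, was not tested. PWOFC vs PD and CWOFP vs CTRL share no library, but each shares its groups with the rotenone comparisons above.

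**Figure D4:**
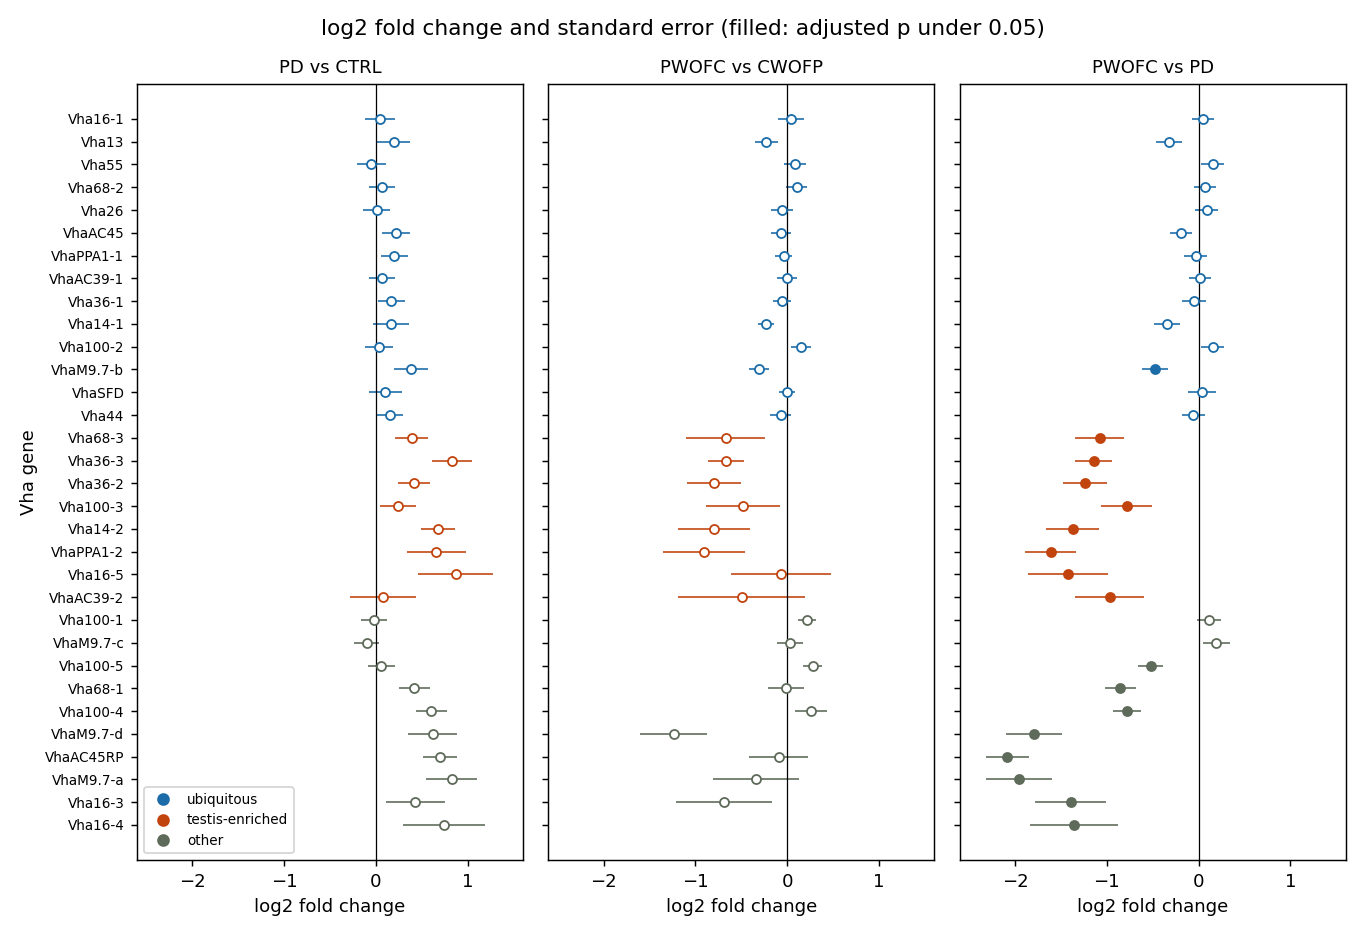
log2 fold change of each tested Vha gene in 3 comparisons, with horizontal bars of 1 SE from edgeR; filled points have an adjusted p under 0.05 and colors mark the class. PD vs CTRL and PWOFC vs CWOFP hold no filled point, and PWOFC vs PD holds 17, all below 0, with all 8 testis-enriched genes and only VhaM9.7-b of the ubiquitous genes.

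FMT was examined by comparing CWFP with CWOFP and PWFC with PWOFC. No member was called by edgeR in either, where 0% of all genes were called, nor by DESeq2, which called 0.401% and 0.916% of all genes, and 1 and 2 of 31 members had an unadjusted p under 0.05, against 2.16% and 4.12% of all genes. Vha100-5 was higher with FMT in both, by 0.70 ± 0.19 in control flies (adjusted p = 1) and by 0.51 ± 0.14 in rotenone-fed flies (adjusted p = 0.716, edgeR), with no overlap between libraries with and without FMT in either, as for 4.73% and 6.5% of all genes. Vha100-4 was higher by 0.72 ± 0.32 (adjusted p = 1) and by 0.61 ± 0.17 (adjusted p = 0.744), also with no overlap. In the fit of all 18 libraries, the value of Vha100-5 in control flies was called (0.77, adjusted p = 0.0448), with 0.216% of all genes. Without CWFP replicate 1 it was 0.83 ± 0.13 (adjusted p = 0.102), and that of Vha100-4 was 0.91 ± 0.27 (adjusted p = 0.147).

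The effect of FMT averaged over both histories was added after these values were seen. It gave 0.62 ± 0.11 for Vha100-5 (adjusted p = 0.0554) and 0.68 ± 0.18 for Vha100-4 (adjusted p = 0.274, edgeR over the 12 libraries of day 14), where 0.205% of all genes were called and no member was. An unadjusted p under 0.05 was held by 3 of 31 members and 5.5% of all genes. DESeq2 called both genes and 1.61% of all genes, and without CWFP replicate 1 Vha100-5 was called at 0.69 ± 0.09 (adjusted p = 0.0123), with 0.888% of all genes. The difference of the FMT effect between histories was not called for any member by edgeR (0% of all genes) or DESeq2 (0.00624%), with none at an unadjusted p under 0.05, where 2.38% of all genes were. Midgut markers moved in the same direction as these 2 genes, with 6032 to 9137 CPM in CWFP against 2924.5 to 4119 in CWOFP, and 13891 to 15902 CPM in PWFC against 5824 to 8448 in PWOFC. Their part in the values of Vha100-4 and Vha100-5 was not tested.

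In PWFC against PWOFC no ubiquitous gene passed the test. Their log2 fold change was above 0 for 13 of 14 with a median of 0.18, where the median of all genes was -0.04. In CPM scaled over all 18 libraries, the 3 PWFC libraries lay above the 3 PWOFC libraries for 8 of 14, against 6.5% of all genes. Of these 8, Vha13, Vha16-1, Vha44, VhaAC45, and VhaM9.7-b overlapped between the groups in TPM, where the share of all genes was not counted. With the same scaling, their summed level was 8257, 8346, and 8167 CPM in PWFC, above the 6411 to 7580.0 CPM of the other 15 libraries. This order depends on the scaling. In TPM, CTRL replicate 1 had 1180 for Vha16-1, against 1346, 1073, and 1052 in PWFC. For Vha55 it had 597 TPM, against 547, 591, and 545 in PWFC. None of the 14 was called by DESeq2 either or had an unadjusted p under 0.05 by edgeR. The ATP synthase genes had nearly the same values, with 13 of 14 above 0 and a median of 0.17, and the midgut markers were higher in PWFC, as given above. Their part in these values was not tested. In CWFP against CWOFP the 2 lists were less alike. The ubiquitous Vha genes had a median of 0.04 with 10 of 14 above 0, and the ATP synthase genes 0.24 with 14 of 14.

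The testis-enriched genes could hardly be compared between FMT groups, because the libraries within a group were so unlike. Vha16-5 had 0, 2.86, and 3.56 CPM in CWFP against 0.436, 1.41, and 1.52 CPM in CWOFP (0.90 ± 1.37, adjusted p = 1), and Vha100-3, of subunit a, had 9.59, 2.93, and 4.53 CPM in PWFC against 6.03, 13.1, and 8.50 CPM in PWOFC (-0.69 ± 0.52, adjusted p = 0.993, edgeR). In both pairs the libraries overlapped. Without CWFP replicate 1, a choice made after its testis genes had been seen, the median log2 fold change of the 8 genes between CWFP and CWOFP moved from 0.29 to 0.86, and still no member was called. Same-numbered libraries of these 2 groups deviated together, although the methods state no pairing. With the replicate number as a block, the median of the 8 genes turned to -0.40, with 5 of 8 below 0. Vha16-5 was then at 0.05 and Vha100-3 at -0.59, also not called, so no direction is given for these genes under FMT in control flies. Vha100-5 and Vha100-4 were at 0.69 and 0.67 with the block.

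The other genes of the pathway were counted from a list of 17 regulators and partners, 16 of them tested. The list holds Mitf, the transcription factor of lysosome and V-ATPase genes, the Rabconnectins, which assemble the pump, and the Rag, Ragulator, and mTor genes that sense amino acids at the lysosome. None was called in PD vs CTRL, with 4 at an unadjusted p under 0.05 and Mitf at -0.87 ± 0.26 (adjusted p = 0.0623, edgeR). In PWOFC vs PD, 7 were higher and 2 lower, against 30% and 34% of all genes, so that 9 of 16 was no larger a share than the 64.1% of all genes. Among them were Mitf (1.22 ± 0.20, adjusted p = 0.000597), Rbcn-3A (0.65 ± 0.15, adjusted p = 0.0038), and mTor (0.48 ± 0.14, adjusted p = 0.0092), which rose, and REPTOR-BP (-1.001 ± 0.16, adjusted p = 0.000463), the partner of a transcription factor held back by mTor signaling, which fell. The list's median of 0.15 compares with -0.09 for all genes and -0.01 for the ubiquitous Vha genes. In the change of the rotenone effect, 4 were higher and 1 lower, against 23.4% and 13.8% of all genes, a share again below that of all genes together, with Mitf at 1.29 ± 0.33 (adjusted p = 0.0145) and raptor at 2.07 ± 0.63 (adjusted p = 0.0284, edgeR).

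The 14 genes of the mitochondrial ATP synthase, the related rotary enzyme that works in the reverse direction, were counted beside them. None was called in PD vs CTRL, where 12 were above 0 with a median of 0.28. In PWOFC vs PD, 6 were lower and 1 higher, against 34% and 30% of all genes, with a median of -0.32, and among the lower were sun (-0.68 ± 0.16, adjusted p = 0.00397) and ATPsynE (-0.67 ± 0.17, adjusted p = 0.00585, edgeR). The summed level of the list differed by 1.52 times between the highest and the lowest library, and that of the regulators by 1.41 times.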

How the data were processed

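Poly(A) RNA of whole flies was measured in 18 libraries of 6 groups, and 6 further samples of the series were not analysed here. The authors trimmed reads with cutadapt, mapped them to dm6 with HISAT2, counted them per gene with featureCounts, and deposited the counts as whole numbers without normalization; the labels also name StringTie 1.3.1 and DESeq2 1.36.0. Versions of the other tools and the handling of strand and multiply mapped reads are not given in the sources used here, so counts of overlapping genes and near-identical paralogs are uncertain. The methods and the labels name different sequencing instruments.

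Symbols, positions, and exon lengths came from the Ensembl annotation BDGP6.54 (dm6 coordinates), and 55 genes had no symbol. ATP6AP2, formerly VhaM8.9, does not start with Vha and was counted with the regulators. Counts were fitted with edgeR 4.0.16 (filterByExpr, TMM, robust glmQLFit, glmQLFTest) on the libraries of the groups compared, in R 4.3.3 with limma 3.58.1 and DESeq2 1.42.0 as an alternative, and summarized with Python 3.11.15, pandas 2.3.3, NumPy 2.4.6, and matplotlib 3.10.9. SEs were derived from the log2 fold change and the F statistic. The tests were also run on simulated counts with planted changes and independent libraries. That simulation held no library set apart like CWFP replicate 1, so no result here rests on it. The members, classes, and lists were chosen with earlier results of these data known. Per-library values are given for 9 genes and, in each test, for the 2 members with the smallest adjusted p under 0.05 and the 2 with the largest change; Vha68-1, VhaM9.7-b, Vha36-2, the non-overlap counts, and the FMT effect averaged over history, with its change, were added after values were seen.

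Alternatives were DESeq2, upper quartile and relative log expression scaling, no filter on low counts, a replicate block, all 18 libraries in 1 fit, and each library left out in turn. No pair of replicates agreed within sampling noise (chi-square per degree of freedom of 22.4 to 260 over 18 pairs). Same-numbered libraries of CWFP and CWOFP deviated together (r = 0.49, 0.26, and 0.35), while those of the other comparisons did not in every pair. The methods state no pairing, and 3 libraries per group cannot settle whether the numbers pair them. Values are from the fit without the block unless the block is named.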

Additional observations from a re-analysis of the deposited data

Results flagged for a closer look

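The effect of rotenone differed between day 7 and day 14 for 4 Vha genes by the test of the difference itself (edgeR, adjusted p under 0.05). The log2 change was -1.38 for Vha36-3, -1.73 for VhaM9.7-d, -1.09 for Vha36-2, and -1.35 for Vha14-2. These are 4 of 32 members, all lower, where 13.8% of all genes were called lower and 37.1% in either direction, so the share is not larger than over all genes. With all 18 libraries in 1 fit none of the 4 was called. No group held more than 3 libraries, so single libraries were not tested as outliers.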

How the results depend on the processing

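The count of Vha genes past adjusted p under 0.05 moved by over 1.5 times in these settings. In PD vs CTRL it rose from 0 to 5 with DESeq2, 4 with upper quartile scaling, 2 with no low-count filter, and 2 with a replicate block, where 25%, 7.79%, 6.73%, and 10.6% of all genes were called, and lay between 0 and 8 with 1 library left out. In CWFP vs CWOFP it was 1 with all 18 libraries in 1 fit (0.216% of all genes), and in PWOFC vs CWOFP 2 with DESeq2 (10.7%); both stayed at 0 with any library left out, as did PWFC vs PWOFC. In CWOFP vs CTRL the 1 call became 2 with DESeq2 (4.98%) and 2 with all 18 libraries (3.47%), and 0 with a replicate block, at an absolute log2 fold change above 1, and with any library left out. In PWOFC vs PD the 17 calls became 7 with all 18 libraries (37.1%) and 11 with the limit on fold change (33%), and lay between 13 and 17 with 1 library left out. For any difference among the 6 groups, 4 became 9 with DESeq2 (23.4%), and 2 to 15 with 1 library left out. For the change of the rotenone effect, 4 became 7 with upper quartile scaling (34.1%) and 0 with all 18 libraries (2.67%), and 2 to 7 with 1 library left out. For FMT averaged over history, 0 became 2 with DESeq2 (1.61%) and 1 with all 18 libraries (0.724%), and 0 to 1 with 1 library left out; for its change with history it stayed at 0. The cause was not tested. Of the counts, 119 of the values under an alternative stayed within 1.5 times; of the log2 fold changes of the genes named by rule or called, 360 kept their direction and side of the threshold, 54 lost significance, 12 passed the threshold, and none of these changed sign. Over all members, comparisons, and alternatives other than leaving out a library, 119 of 1692 values changed sign, none of them of a gene called in that comparison. The largest were in CWFP vs CWOFP with the block, where Vha100-3, Vha14-2, Vha16-3, Vha36-2, Vha68-3, and VhaM9.7-d turned negative. The block left the count of CWFP vs CWOFP at 0. Genes under about 20 counts, such as Vha16-4, cannot show small changes.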
